A study of Mus musculus with 56 samples.

Results

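During the reprogramming of mouse fibroblasts, 150 of 13451 measured genes were high in SSEA1+ cells sorted on day 6 and lower both in the starting cells and in the GFP+ cells of day 12. They were chosen from the 3 control populations at those points. For each gene, the day 6 SSEA1+ mean plus 10 was divided by the higher of the day 0 and day 12 means plus 10, and the 150 genes of the largest ratio were kept among the 8297 whose day 6 SSEA1+ mean reached 300. The unit is a score, the authors' normalized and rounded tag count per gene. The levels in those 3 populations are therefore a description and support nothing by themselves.

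The cells were OG2-MEFs, embryonic fibroblasts whose GFP reporter is driven by the promoter of the pluripotency gene Oct4, and they received Oct4, Sox2, Klf4 and Myc (OSKM) in medium with vitamin C. The sorted series comprised cells with an shRNA against Ctcf and cells with a control shRNA (shLuci). Each was collected with no named sort on day 0, as SSEA1+, SSEA1- Thy1- (double-negative) and Thy1+ cells on days 3, 6 and 9, and as GFP+ cells on day 12, with 2 libraries per group and 44 in all. On day 10, cells with no named sort that received OSKM plus CTCF, with or without an shRNA against Smarca5, were set against an OSKM control. The labels describe OSKM delivery both by separate retroviruses and by a doxycycline-inducible lentivirus, without saying which each library had, so the control shRNA cells and the Ctcf shRNA cells alike carry viral transgenes. An iPSC culture grown with LIF and inhibitors of MEK and GSK3 and a MEF culture gave 1 library each. Whether the 2 libraries of a group came from separate cultures is not stated, so the p-values below measure only the spread between libraries, which may be technical.

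SSEA1 is a carbohydrate on the cell surface that appears on reprogramming cells before pluripotency genes are fully active, while Thy1 is a surface protein of fibroblasts that is lost along the way. Cells that carry SSEA1 and have lost Thy1 are the intermediates from which most iPSCs arise, and cells that keep Thy1 largely do not complete the process. CTCF is a zinc finger protein that binds insulators and anchors chromatin loops. Intermediates of this process are known to express, for a time, genes of lineages that are neither the starting nor the final cell type, among them epidermal and neural genes.

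Transcripts of the sorted surface markers were compared with the labels. Fut9, the enzyme that builds the SSEA1 epitope, was at 5234 and 6160 in day 6 SSEA1+ control cells, against 465 and 514 in day 6 Thy1+ control cells, and at 3146 and 4120 in day 6 double-negative control cells. Thy1 had a mean of 100 in day 6 SSEA1+ and 208 in day 6 double-negative control cells, against 5844 in day 6 Thy1+ control cells, but of 3012.5 in day 9 double-negative control cells, against 3121 on day 0. In double-negative cells these transcripts were thus not low throughout. The summed level of 7 fibroblast markers was 2301 to 2487 in the SSEA1+ cells and 170256 to 179268 in the Thy1+ cells. The 8 macrophage markers in the table summed to at most 868 in any library from day 3 on. On day 0 they summed to 4228 to 4847 in control cells and 5652 to 6836 in Ctcf shRNA cells. Of 3 basal keratinocyte markers only Krt14 was in the table, at 5 and 6 in day 6 SSEA1+ control cells and 58 and 64 in day 6 SSEA1+ Ctcf shRNA cells. It was highest in day 3 Thy1+ cells with Ctcf shRNA, at 238 and 298, against 46 and 60 in control cells. Ctcf was lower with its shRNA in all 11 populations, with log2 differences between -0.52 on day 0 and -1.81 in day 12 GFP+ cells. Among bulk samples such as these, fewer cells of a type and less RNA per cell cannot be told apart.

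The ratios of the 150 genes ran between 2.615 and 20.6, and 142 of the genes had both day 6 SSEA1+ control libraries at or above the minimum. By annotation, 142 code for proteins and 8 are lincRNAs. Just inside the limit lay Pkp1 (2.65), Ano1 (2.64), Ftx (2.63) and Nefl (2.62). Just outside lay Stat5a (2.61), Bcl2, Smarca2 and Ccdc122, so the limit does not fall at a gap. A ratio constant of 1 in place of 10 kept 147 of the 150 genes and one of 50 kept 143, whereas a minimum of 100 kept 76 and one of 600 kept 97. The X chromosome held 11 of them, or 7.33%, against 3.92% of all genes in the table.

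The first of the 2 day 6 SSEA1+ control libraries stood apart in 3 of the 150 genes. Gm42418, which RefSeq lists as a synonym of the 18S ribosomal RNA pseudogene Rn18s-rs5, was at 290619 in that library and at 8636 in the second. AY036118, which overlaps it on the opposite strand at chr17:39847113-39848035, was at 181252 and 4803. Lars2, which encodes the mitochondrial leucyl-tRNA synthetase, was at 21660 and 1176. In the second library these 3 genes were no higher than in day 0 or day 12 control cells, so their place among the 150 rests on 1 library. The histone genes Hist1h2af (496 and 266) and Hist1h2ap (434 and 266) were high in both libraries. They were at most 28 and 70 in every other sorted-series library, the day 10 samples not included. Of 20 histone genes measured, 3 had both day 6 SSEA1+ control libraries above all others of the sorted series. All 5 genes are counted among the 150 in what follows. With the first library alone the choice would have kept 135 of the 150 genes, and with the second alone 130.

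The 4 largest ratios included Hist1h2af (20.6), Gm42418 (9.53) and Hist1h2ap (9.47), and AY036118 (8.48) came next. The other 11 of the 15 genes with the largest ratios were She, an adaptor protein that binds phosphotyrosine (12.0), Zfp711, an X-linked zinc finger protein (8.41), the cadherin Cdh8 (8.06), the neuronal protease Prss12 (7.77), the homeobox gene Barx1 (7.15), Papln (6.82), Prob1 (6.11), the epidermal transglutaminase Tgm3 (5.53), Lingo3 (5.48), Prr18 (5.42) and Gprin3 (5.21). She was at 359 and 304 in day 6 SSEA1+ control cells, against 1 and 0 on day 0 and 17 and 20 on day 12. Zfp711 was at 4287 and 5692, against 618 and 430 on day 0 and 396 and 773 on day 12. In both genes the day 6 libraries lay above all those of day 0 and day 12, which the choice of genes fixes.

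By known function, 92 of the 150 genes fell into 10 classes, which were drawn up after the genes had been listed. The largest class, with 21 genes, acts in neurons. It holds the RNA-binding protein Elavl4, the light neurofilament Nefl, the zinc finger factor Insm1, the semaphorin receptor Plxnc1, the netrin receptor Unc5d, the adhesion molecule Chl1 and the synaptic proteins Sv2b, Homer2 and Dlgap1. A class of 13 genes builds the epidermis and its lipid barrier: the transglutaminases Tgm1 and Tgm3, the desmosome components Dsp, Pkp1 and Perp, the lipase Lipm, the fatty acid hydroxylase Cyp4f39 and the Ets factor Ehf. Signalling genes numbered 18, among them the Notch ligand Jag2 and the R-spondin receptor Lgr6. Transcription regulators numbered 9, with Barx1, Bcl11b and Prox1, and cytoskeleton and hair cell genes 9, with Ush1c and Avil. Myelin genes (5, with Mobp, Mal and Pllp), channels and ion transporters (5, with Ano1), the aldehyde and alcohol dehydrogenases (5, with the retinoid enzymes Aldh1a1 and Adh7), Gm42418, AY036118, Lars2 and the 2 histone genes (5) and the long non-coding RNAs Miat and Ftx made up the rest. Of the wider gene lists, the 150 held 3 of 17 neuronal genes, 2 of 9 keratinocyte genes, 1 of 20 simple epithelial genes, 1 of 14 synapse and exocytosis genes, 0 of 18 ion channels, 0 of 17 neural and placode transcription factors and 0 of 28 pluripotency genes. The set is 150 of 13451 genes, so a count of 0 in a list this short says little. Other lists were also counted and are not shown here.

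Upstream sequence was available for 115 of the 150 genes in RefSeq's GRCm38.p6 tables, which hold 10261 genes of the score table. The 250 bases before the start of 6 genes are shown because each holds letters known from binding sites of a reprogramming factor family or of CTCF, and the values of these genes are given below. Capitals mark the match, on either strand: CATTGTT (SOX) in Elavl4 and Lgr6, ATGCAAAT (octamer) in Aldh1a1, CCACACCC (KLF) in Fgfbp1, CACGTG (E-box) in Lingo3 and the CTCF core motif in Pof1b.
Elavl4, chr4:110351912-110352161 minus strand: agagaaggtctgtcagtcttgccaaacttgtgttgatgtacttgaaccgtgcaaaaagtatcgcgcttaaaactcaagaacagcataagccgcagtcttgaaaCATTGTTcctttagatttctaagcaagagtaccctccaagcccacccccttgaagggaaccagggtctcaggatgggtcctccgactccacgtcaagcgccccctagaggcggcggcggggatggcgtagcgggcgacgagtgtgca
Lgr6, chr1:135105277-135105526 minus strand: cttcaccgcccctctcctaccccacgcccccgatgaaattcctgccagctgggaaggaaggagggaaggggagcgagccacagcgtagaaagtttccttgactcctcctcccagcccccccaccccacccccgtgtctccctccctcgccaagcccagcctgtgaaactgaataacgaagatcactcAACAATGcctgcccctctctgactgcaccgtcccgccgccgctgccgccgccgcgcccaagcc
Aldh1a1, chr19:20601718-20601967 plus strand: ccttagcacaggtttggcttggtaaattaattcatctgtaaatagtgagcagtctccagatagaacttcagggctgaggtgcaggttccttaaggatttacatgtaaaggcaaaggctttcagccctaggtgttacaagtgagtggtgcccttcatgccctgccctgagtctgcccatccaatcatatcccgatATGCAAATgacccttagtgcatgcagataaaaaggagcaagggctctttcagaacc
Fgfbp1, chr5:43981800-43982049 minus strand: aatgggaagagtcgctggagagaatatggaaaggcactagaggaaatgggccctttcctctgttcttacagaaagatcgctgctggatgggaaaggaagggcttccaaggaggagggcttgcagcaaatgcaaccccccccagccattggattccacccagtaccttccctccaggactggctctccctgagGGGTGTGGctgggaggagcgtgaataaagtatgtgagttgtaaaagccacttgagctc
Lingo3, chr10:80844040-80844289 minus strand: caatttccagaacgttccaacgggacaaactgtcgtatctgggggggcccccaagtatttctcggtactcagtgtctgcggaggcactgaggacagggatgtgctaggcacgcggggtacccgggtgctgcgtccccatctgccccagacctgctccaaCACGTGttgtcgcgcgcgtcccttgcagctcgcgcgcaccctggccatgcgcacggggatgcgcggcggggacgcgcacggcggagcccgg
Pof1b, chrX:112698652-112698901 minus strand: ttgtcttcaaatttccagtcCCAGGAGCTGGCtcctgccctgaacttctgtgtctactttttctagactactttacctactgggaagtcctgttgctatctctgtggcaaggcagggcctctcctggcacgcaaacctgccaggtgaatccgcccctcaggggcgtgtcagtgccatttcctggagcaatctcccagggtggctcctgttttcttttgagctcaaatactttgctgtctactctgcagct
The SOX letters began 147 bases before the start in Elavl4 and 63 before it in Lgr6, and the octamer 56 before it in Aldh1a1. On either strand of the 250 bases before the start, CATTGTT stood in 6.09% of the 115 genes and 2.16% of all 10261. A gene with several starts was counted if any of them held the letters. The shares were 2.61% and 1.64% for ATGCAAAT, 5.22% and 3.996% for CCACACCC, and 13.04% and 9.89% for CACGTG. The CTCF core stood in 1.74% of the 115 and 2.82% of all, and the GC box GGGCGGGG in 27.0% and 33.9%. The AP-1 letters TGANTCA stood in 6.09% and 5.67%, and TATAAA in 11.3% and 8.26%. None of these letter strings contains another. In the same bases the 115 genes had a median of 4.4 CpG dinucleotides per 100 bases against 6.4 over all. Their median GC content was 59.2%, against 59.9%. A match is a run of letters and not a bound site.

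The level of these genes differed between the sorts as well as between the days. In control cells the median score of the 150 genes was 82.25 on day 0. In SSEA1+ cells it was 711 on day 3, 794 on day 6 and 518 on day 9. In double-negative cells it was 382, 643 and 416 on the same days, and in Thy1+ cells 269, 304 and 237. It was 220.5 in day 12 GFP+ cells. The median of all genes lay between 489 and 497 throughout. Day 6 SSEA1+ cells and the day 0 and day 12 cells took part in the choice, but the other 8 populations did not.

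**Figure D1:**
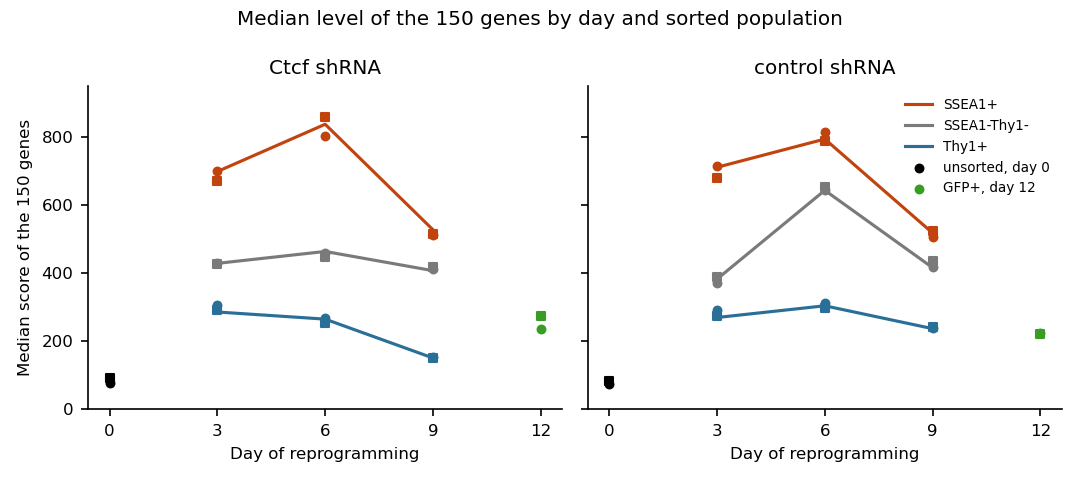
Median score of the 150 genes (vertical axis) against the day of reprogramming, for Ctcf shRNA (left) and control shRNA (right). Lines join group medians and points are single libraries. In control cells SSEA1+ cells lie above Thy1+ cells on each day, at 794 against 304 on day 6.

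Among the 11 control populations, 89 of the 150 genes had their highest mean in day 6 SSEA1+ cells and 46 in day 3 SSEA1+ cells, 9 in day 6 double-negative cells and 6 elsewhere. Day 6 SSEA1+ cells are in these counts by the choice of genes. Among the 8 control populations that the choice did not use, 71 of the 150 genes (47.3%, against 27.7% of all genes) had their highest mean in day 3 SSEA1+ cells, 39 (26%, against 8.81%) in day 6 double-negative cells and 29 (19.3%, against 17.9%) in day 9 SSEA1+ cells. The other 5 populations held 11 genes. Itga4, the integrin alpha 4 chain, was at 4841 and 5189 in day 3 SSEA1+ control cells, and at 844 and 886 on day 6 and 471 and 556 on day 9. Barx1 was at 412 and 494 on day 3, at 332 and 356 on day 6 and at 126 and 174 on day 9. Lingo3, a leucine-rich repeat membrane protein, ran a later course, at 53 and 57 on day 3, 892 and 851 on day 6 and 396 and 390 on day 9. These 3 genes show an early and a later course.

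The other genes whose promoters are shown also differed in course. Aldh1a1 was at 879 and 854 in day 3 SSEA1+ control cells, at 1826 and 2179 on day 6 and at 1394 and 1395 on day 9. Lgr6 was at 1787 and 1814 on day 3, at 1775 and 1622 on day 6 and at 888 and 1076 on day 9. Fgfbp1, a carrier that releases FGFs from the matrix, was at 1131 and 1133 on day 3, at 2089 and 2027 on day 6 and at 1551 and 1706 on day 9. Aldh1a1 and Fgfbp1 were thus lowest on day 3 and Lgr6 on day 9, with no overlap between those 2 days in any of the 3 genes. Relative to day 6, whose level was part of the choice, the SSEA1+ level of the median gene was 0.820 on day 3 and 0.595 on day 9. On day 6, double-negative cells held 0.744 of the SSEA1+ level and Thy1+ cells 0.298.

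**Figure D2:**
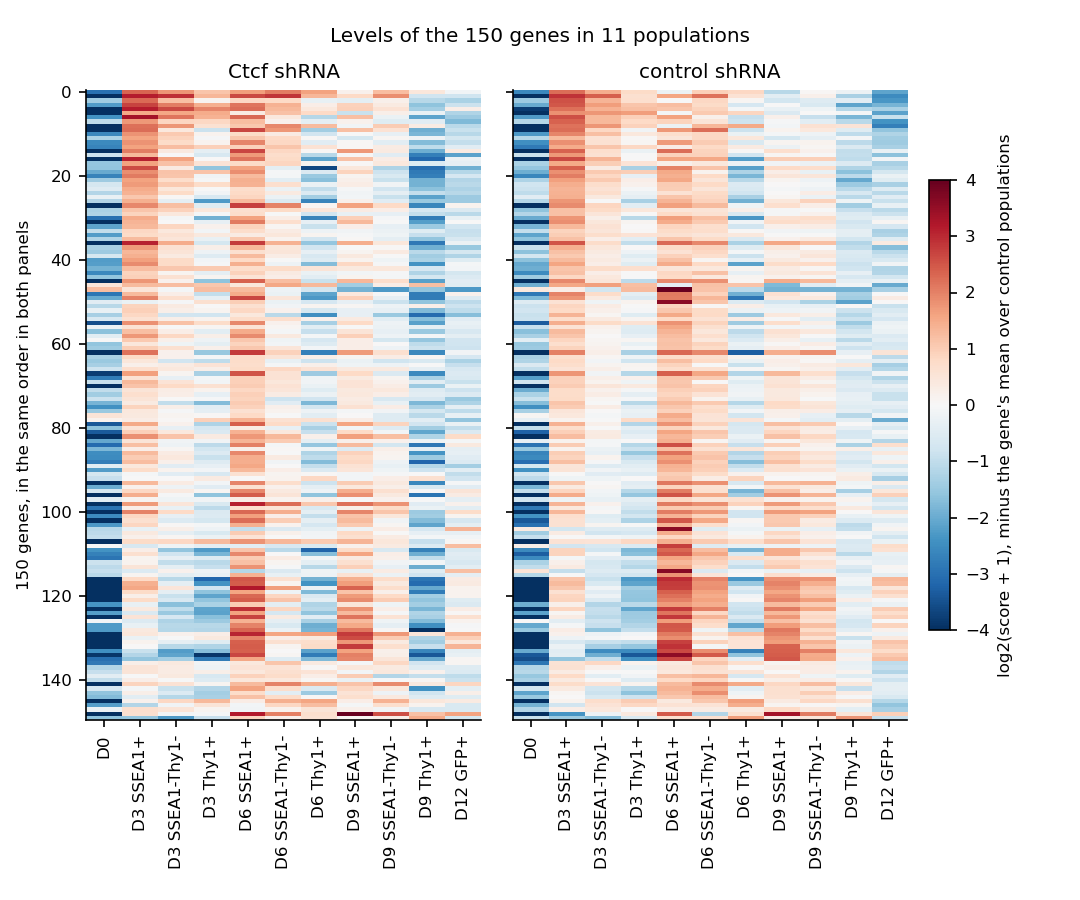
Levels of the 150 genes (horizontal lines, ordered by the control population where each is highest) in 11 populations, with Ctcf shRNA on the left and control shRNA on the right. Colour is log2(score + 1) minus the gene's mean over control populations, limited at 4 either way, and the 46 genes that are highest in day 3 SSEA1+ cells stand at the top.

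Populations that had no part in the choice were then tested against each other. Each test used limma on log2(score + 1), fitted to all 44 libraries and 13451 genes, and a gene is called at a Benjamini-Hochberg adjusted p below 0.05. On day 3, 125 of the 150 genes were higher in SSEA1+ than in Thy1+ control cells, where 35.4% of all genes were called higher, and 5 were lower, where 28.8% of all genes were. Their median log2 difference was 1.26, against 0.09 over all genes. All 21 neuron genes and all 9 transcription regulators rose, and 9 of the 13 epidermal genes did. Barx1 was at 412 and 494 in SSEA1+ cells, against 34 and 35 in Thy1+ cells, a log2 fold change of 3.67 ± 0.29 (SE, adjusted p = 1.98e-11, limma). Insm1 was at 1159 and 1214 in SSEA1+ cells, against 119 and 87 in Thy1+ cells, a log2 fold change of 3.53. For both genes every SSEA1+ library was above every Thy1+ library. Mobp (3.46), Slc10a4, a carrier of synaptic vesicles (3.30), and Plxnc1 (3.09) were among the other large differences. The lower genes included Crybg1 (-1.58), Ecscr (-0.67) and Pof1b (-4.35). Pof1b, which binds actin at epithelial junctions, was at 0 and 36 in SSEA1+ cells, against 98 and 154 in Thy1+ cells, so that the size of its difference depends on the constant added before the logarithm.

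On day 9, as on day 3, most epidermal genes and most neuron genes were higher in SSEA1+ than in Thy1+ control cells. SSEA1+ control cells were higher than Thy1+ control cells in 121 of the 150 genes (38.8% of all genes) and lower in 5 (30% of all genes), with a median log2 difference of 1.09 against 0.13 over all. All 13 epidermal genes rose, with a class median of 2.13, and 19 of 21 neuron genes did, with a median of 1.54. Tgm1, which cross-links the cornified envelope, was at 818 and 782 in SSEA1+ cells, against 132 and 123 in Thy1+ cells, a log2 fold change of 2.64 ± 0.20 (SE, adjusted p = 1.15e-11, limma). On day 3 the same gene was at 234 and 176 in SSEA1+ cells and 236 and 242 in Thy1+ cells, and was not called (log2 fold change -0.23, adjusted p = 0.323). Pof1b (2.77), Insm1 (2.71), Lingo3 (2.63), Ly6g6c (2.62) and Prob1 (2.57) had the other largest differences on day 9. The killer lectin-like receptor Klra2 (-1.69), Adh7 (-0.88), the Wnt pathway protein Dixdc1 (-0.63) and Mtmr11 (-0.36) were lower in SSEA1+ cells. Of the wider lists, 9 of 9 keratinocyte genes, 19 of 20 simple epithelial genes and 26 of 28 pluripotency genes were higher in SSEA1+ cells on day 9, against 2, 11 and 11 on day 3, while neuronal genes were higher in 13 of 17 on day 9 and 12 of 17 on day 3.

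On day 6 most of the set was also higher in cells that carried neither SSEA1 nor Thy1. Double-negative control cells were higher than Thy1+ control cells in 120 of the 150 genes (35% of all genes) and lower in 5 (29.3% of all genes), with a median log2 difference of 1.21 against 0.07 over all. The lower count was 3 without the first day 6 Thy1+ control library. Slc10a4 was at 273 and 209 in double-negative cells, against 7 and 4 in Thy1+ cells, a log2 fold change of 5.25 ± 0.31 (SE, adjusted p = 6e-14, limma). Sv2b, a synaptic vesicle glycoprotein, was at 256 and 256 in double-negative cells, against 14 and 6 in Thy1+ cells, a log2 fold change of 4.65. In both genes the populations were far apart, with no overlap of libraries. Mobp (4.35), the mitochondrial enzyme Hpdl (4.23), Lingo3 (4.10) and the glutamate receptor partner Shisa8 (3.75) were next. The lower genes included Pof1b (-1.97), Crybg1 (-0.91), Mal (-0.59) and the kinase Ikbke (-0.59). Fut9 was at 3146 and 4120 in these double-negative cells, and its part in the result was not tested.

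Within the control SSEA1+ cells more of the genes fell than rose between day 3 and day 9. On day 9, 69 of the 150 genes were lower than on day 3 (31.1% of all genes) and 35, or 23.3%, were higher (27.1% of all genes), and the median log2 difference, day 9 minus day 3, was -0.33 against -0.04 over all. Transcription regulators fell in 7 of 9, and neuron genes fell in 11 of 21 and rose in 5. Epidermal genes rose in 7 of 13 and fell in 3. She was at 78 and 89 on day 9, against 807 and 872 on day 3, a log2 fold change of -3.32 ± 0.20 (SE, adjusted p = 1.57e-13, limma). Adh7, which oxidises retinol and other alcohols, was at 216 and 222 on day 9, against 2140 and 2294 on day 3, a log2 fold change of -3.33. Neither gene had overlapping libraries. Klra2 (-3.42), Itga4 (-3.29), Zfp711 (-2.52) and Miat, a long non-coding RNA (-2.52), fell as well. In the other direction, the desmosome protein Pkp1 was at 584 and 580 on day 9, against 34 and 34 on day 3, a log2 fold change of 4.06 ± 0.33 (SE, adjusted p = 4.71e-11, limma). Pof1b (7.31, with a day 3 library at 0), Lingo3 (2.82), Sv2b (2.81), Ly6g6c (2.60) and the hair cell scaffold Ush1c (2.35) rose too. Markers differed between these days as well: the 5 epithelial markers summed to 26270 to 26994 on day 9, against 907 to 984 on day 3, the 7 fibroblast markers to 32510 to 33176, against 4667 to 5027, and the 6 pluripotency markers to 4298 to 4495, against 76 to 79. Krt14 was at 75 and 80 on day 9, against 3 and 7 on day 3. Their part in the result was not tested.

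**Figure D3:**
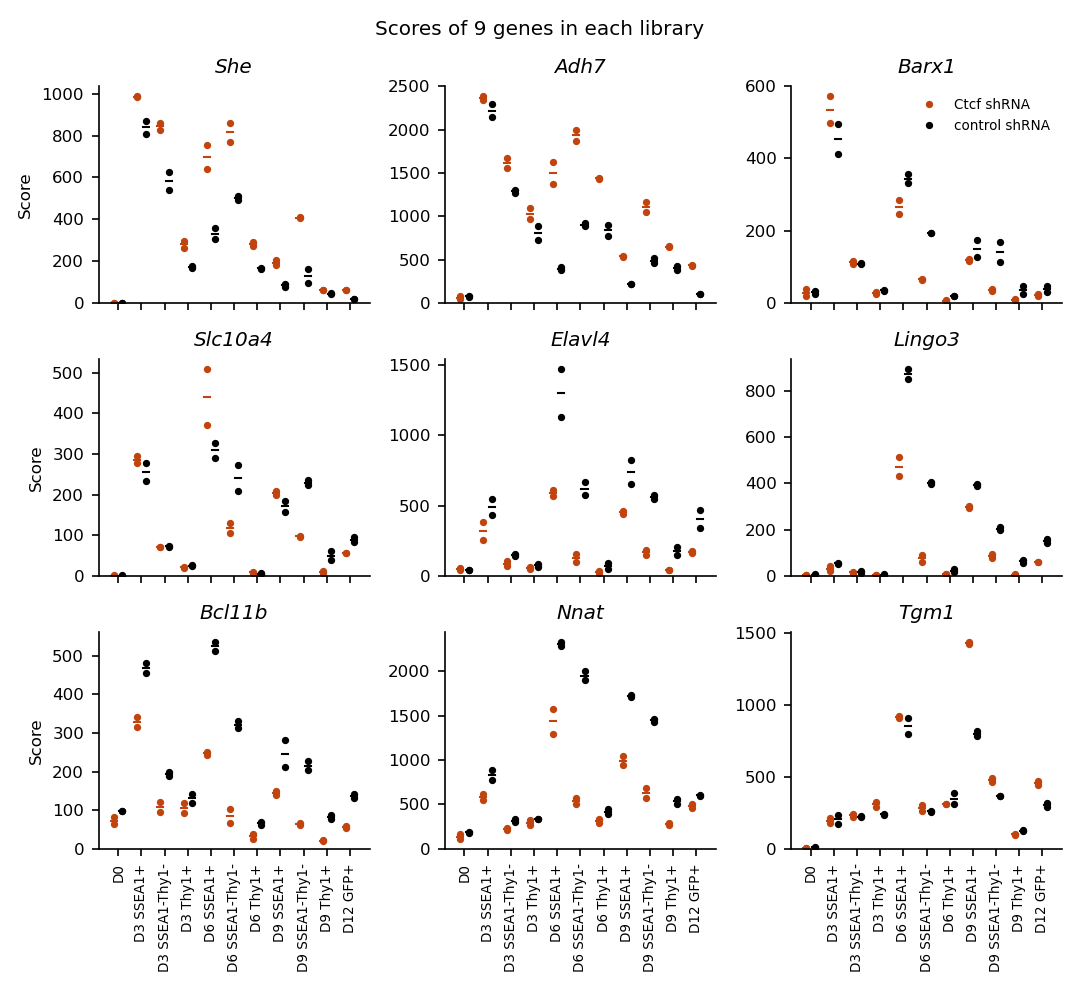
Scores (vertical axes) of 9 genes in each of the 44 libraries, by population, with Ctcf shRNA in colour to the left of control shRNA in black. Points are libraries and short lines are means. In control SSEA1+ cells She and Adh7 are highest on day 3 and lowest on day 9 and Lingo3 is highest on day 6, while Tgm1 with Ctcf shRNA is highest in day 9 SSEA1+ cells.

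The Ctcf shRNA libraries had no part in the choice, and the set was transient in them too. Of the 150 genes, 141 were higher in day 6 SSEA1+ than in day 0 Ctcf shRNA cells (41.3% of all genes), and limma called 0 lower (35.1% of all genes), also at an unadjusted p below 0.05. Against day 12 GFP+ Ctcf shRNA cells, 140 were higher (39.1% of all genes) and 3 lower (31.4% of all genes). The 3 lower genes were Gm42418, AY036118 and Lars2, and the lower count was 0 without the first Ctcf shRNA day 6 SSEA1+ library. Ehf was at 2422 and 2603 in day 6 SSEA1+ cells, against 0 and 5 on day 0. The palmitoyltransferase Zdhhc23 was at 1834 and 1796 in day 6 SSEA1+ cells, against 1 and 1 on day 0. These genes were all but silent in the fibroblasts. Cdh8 was at 706 and 600 in day 6 SSEA1+ cells, against 65 and 44 on day 12, a log2 fold change of 3.58 ± 0.65 (SE, adjusted p = 2.68e-05, limma). Tmem246 (3.84), the imprinted gene Rtl1 (3.77), Barx1 (3.55) and She (3.44) were among the other large differences from day 12. With Ctcf shRNA the 7 fibroblast markers summed to 36246 to 36606 on day 12, against 2918 to 3415 in day 6 SSEA1+ cells. In day 12 control cells they summed to 12659 to 13534. The 6 pluripotency markers summed to 18529 to 18729 on day 12 with Ctcf shRNA and to 33376 to 33552 in control cells. The part of these markers was not tested. The ratio used for the choice had a median of 3.10 in Ctcf shRNA cells and 3.18 in control cells over the 150 genes, against 0.939 and 0.889 over the 8297 genes at the minimum. It was above 1 in Ctcf shRNA cells for 145 of the 150 genes, against 3653 of the 8297 genes at the minimum. The same choice made on Ctcf shRNA libraries would have held 80 of the 150, and Hist1h2af was at 6 and 28 in day 6 SSEA1+ Ctcf shRNA cells, against 16 and 17 in day 0 Ctcf shRNA cells.

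With Ctcf shRNA more of these genes were lower than higher. Averaged over the 8 populations that the choice did not use, 77 of the 150 genes were lower with Ctcf shRNA (22.8% of all genes) and 19 were higher (22.4% of all genes), with a median log2 difference of -0.19 against -0.0035 over all genes. Neuron genes were lower in 15 of 21 and higher in 1, transcription regulators lower in 6 of 9 and signalling genes lower in 10 of 18. Epidermal genes were lower in 4 of 13 and higher in 4. Among the called genes that differed in the same direction in all 8 populations, the falls included Elavl4 (-1.26 ± 0.10, adjusted p = 3.42e-11, limma), Lingo3 (-1.24), Bcl11b (-1.12), Pkp1 (-0.94), Plxnc1 (-0.86) and the imprinted neural gene Nnat (-0.80). Ccdc141 (-0.72), the pepsinogen gene Pga5 (-0.65), the Wnt and FGF antagonist Shisa3 (-0.65), Greb1 (-0.64), the protein kinase C gene Prkce (-0.60) and Pllp (-0.57) were also among them. The rises of that kind included She (0.79 ± 0.07, adjusted p = 9.68e-10, limma), Adh7 (0.72), Zfp711 (0.60), Mal (0.54), Perp (0.27) and the synaptic scaffold Magi2 (0.22). Other called genes went in both directions across the 8 populations, among them Pof1b (1.18), Miat (0.71) and Rasgrp1 (0.65), and Sv2b (-0.79) and Jag2 (-0.76), which were chosen after their values were seen.

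By population, the median log2 difference of the 150 genes between Ctcf shRNA and control cells was -0.49 in day 6 double-negative cells, -0.62 in day 9 Thy1+ cells and -0.29 in day 9 double-negative cells, where 120, 122 and 104 of the genes lay below 0. Over all genes, 53.5%, 46.1% and 49.8% lay below 0 in these 3 populations. In the other 8 populations the median of the 150 genes lay between -0.12 and 0.10, with 60 to 93 of them below 0. There, 46% to 55.2% of all genes lay below 0. The medians of all genes lay between -0.07 and 0.02. In the 3 populations of the choice these medians are a description: -0.08 in day 6 SSEA1+ cells, -0.02 on day 0 and -0.03 on day 12. The 11 populations share no library.

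**Figure D4:**
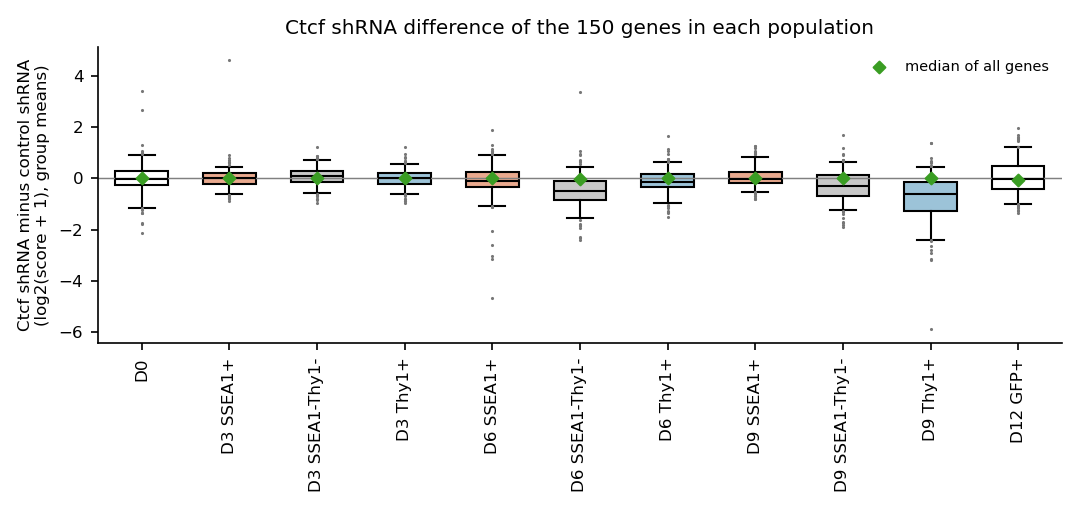
Difference between Ctcf shRNA and control shRNA means on the log2(score + 1) scale (vertical axis) for the 150 genes in each population. Boxes span the quartiles, whiskers the 5th to 95th percentiles, and diamonds mark the median of all genes. Day 6 double-negative cells (-0.49) and day 9 Thy1+ cells (-0.62) lie lowest.

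In day 6 double-negative cells most neuron genes and transcription regulators fell, while epidermal genes moved in both directions. With Ctcf shRNA, 79 of the 150 genes were lower (21.9% of all genes) and 9 were higher (20.2% of all genes). Neuron genes were lower in 14 of 21, transcription regulators in 7 of 9, cytoskeleton and hair cell genes in 7 of 9, and epidermal genes in 3 of 13 with 3 higher. Lingo3 was at 62 and 92 with Ctcf shRNA, against 406 and 398 in control cells, a log2 fold change of -2.40 ± 0.37 (SE, adjusted p = 9.23e-06, limma). Elavl4 was at 97 and 153 with Ctcf shRNA, against 572 and 666 in control cells, a log2 fold change of -2.33 ± 0.27. Nnat was at 510 and 575 with Ctcf shRNA, against 2000 and 1903 in control cells, a log2 fold change of -1.85 ± 0.14. In all 3 genes the Ctcf shRNA libraries lay below both control libraries. The glycogen phosphorylase gene Pygl (-2.30), Bcl11b (-1.92) and Sv2b (-1.84) were also among the largest falls. Adh7 went the other way, at 1866 and 2000 with Ctcf shRNA, against 918 and 892 in control cells, a log2 fold change of 1.09 ± 0.15. Pof1b (3.38), Mal (0.96), She (0.70), Magi2 (0.44) and Megf9 (0.42) rose with it. Pof1b was low in control cells, with a mean of 42 and an SD of 28.3, against a mean of 395 with Ctcf shRNA. Marker levels in this sort differed as well: with Ctcf shRNA the 7 fibroblast markers summed to 52741 to 53267, against 23486 to 24269 in control cells, the 5 epithelial markers to 2226 to 2322, against 3359 to 3525, the 6 pluripotency markers to 76 to 92, against 311 to 315, and Fut9 was at 1193 and 1596, against 3146 and 4120. Their part in the result was not tested.

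In SSEA1+ cells few of the genes were called, in either direction. On day 3, 9 of the 150 genes were lower (3.22% of all genes) and 4 higher (3.56% of all genes). Greb1 (-0.73), Ccdc141 (-0.69), Pllp (-0.63), Nnat (-0.51), Acsbg1 (-0.46) and Crybg1 (-0.44) fell, and Pof1b (4.62), Miat (0.92), Tppp3 (0.63) and the desmosome gene Dsp (0.61) rose. Pof1b had a control mean of 18 with an SD of 25.5, so the size of its rise depends on the constant added before the logarithm. Dsp was at 18178 and 18178 with Ctcf shRNA, against 10706 and 13336 in control cells. These counts rest on few libraries. Leaving out the first Ctcf shRNA library left 2 higher and 3 lower, the second left 2 higher, the first control library left 3 lower and the second control library 2 higher and 5 lower. With Ctcf shRNA the 5 epithelial markers, which do not include Dsp, summed to 1409 to 1473, against 907 to 984 in control cells of this sort. The 7 fibroblast markers summed to 5485 to 5635, against 4667 to 5027, and Krt14 was at 80 and 118, against 3 and 7. Their part was not tested.

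On day 9, 13 of the 150 genes were higher in SSEA1+ cells with Ctcf shRNA (4.8% of all genes) and 10 lower (9.04% of all genes). Adh7 was at 537 and 535 with Ctcf shRNA, against 216 and 222 in control cells, a log2 fold change of 1.29 ± 0.15 (SE, adjusted p = 6.57e-07, limma). She was at 182 and 204 with Ctcf shRNA, against 78 and 89 in control cells, a log2 fold change of 1.20. Both genes had fallen between day 3 and day 9 in control cells, and neither had overlapping libraries here. Miat (1.25), Tgm3 (1.09), Rtl1 (1.01) and Zfp711 (0.95) rose as well, and Nnat (-0.80), Bcl11b (-0.75), Prkce (-0.68), the intermediate filament Synm (-0.62), Gpm6b (-0.57) and Fam69b (-0.53) fell. Without the first or second Ctcf shRNA library the counts were 8 higher and 6 lower, and 7 higher and 4 lower. Without the first or second control library they were 6 higher and 5 lower, and 8 higher and 6 lower. With only the 4 libraries compared in the fit, limma called 0 of the 150 genes in day 9 SSEA1+ cells, with 31 higher and 24 lower at an unadjusted p below 0.05, and 0 in day 3 SSEA1+ cells, with 23 higher and 22 lower. In those fits 13 genes of the whole table were called on each day. The share of all genes at the unadjusted level is not given here, so the unadjusted counts cannot be set against it. The 7 fibroblast markers summed to 11314 to 12649 with Ctcf shRNA, against 32510 to 33176 in control cells of this sort, and the 5 epithelial markers to 28794 to 31380, against 26270 to 26994. Krt14 was at 198 and 212 with Ctcf shRNA, against 75 and 80 in control cells. Their part was not tested.

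The day 9 effects of Ctcf shRNA in SSEA1+ and Thy1+ cells were tested against each other. The effect was more positive in SSEA1+ cells for 76 of the 150 genes (10.3% of all genes) and more negative for 2 (9.43% of all genes), and the median difference of the effects was 0.69 on the log2 scale. Of the 76 genes, 75 lay below 0 in Thy1+ cells, with a median of -1.21, while in SSEA1+ cells 37 lay above 0 and 39 below, with a median of -0.01. Of the 1385 genes of the whole table with a more positive effect in SSEA1+ cells, 97.6% lay below 0 in Thy1+ cells, with a median of -0.53, and 79.9% lay above 0 in SSEA1+ cells, with a median of 0.17. The 76 included 12 of 21 neuron genes, 8 of 13 epidermal genes, 6 of 9 transcription regulators and 7 of 9 cytoskeleton and hair cell genes. Zdhhc23 was at 56 and 31 in Thy1+ cells with Ctcf shRNA, against 279 and 258 in Thy1+ control cells, and at 1134 and 1246 in SSEA1+ cells with Ctcf shRNA, against 1082 and 1287 in SSEA1+ control cells. The difference of its effects was 2.67 ± 0.22 (SE, adjusted p = 3.87e-09, limma). Slc10a4 was at 12 and 7 in Thy1+ cells with Ctcf shRNA, against 62 and 38 in Thy1+ control cells, and at 209 and 198 in SSEA1+ cells with Ctcf shRNA, against 184 and 158 in SSEA1+ control cells, and the difference of its effects was 2.53 ± 0.43 (SE, adjusted p = 0.000123, limma). In both genes the groups were apart in Thy1+ cells, and in Zdhhc23 they overlapped in SSEA1+ cells. Lingo3 (2.79) and Dock3 (2.76) had differences of like size. Lipm was at 0 and 78 in Thy1+ cells with Ctcf shRNA, against 637 and 446 in Thy1+ control cells, so its difference of 5.93 depends on the constant added before the logarithm. The 2 genes in the other direction were Rasgrp1, an activator of Ras (-1.07), and Dglucy, the D-glutamate cyclase (-0.53). Only 1 of the 2 was called without the second Thy1+ control library, either Thy1+ Ctcf shRNA library, either SSEA1+ control library or the first SSEA1+ Ctcf shRNA library.

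**Figure D5:**
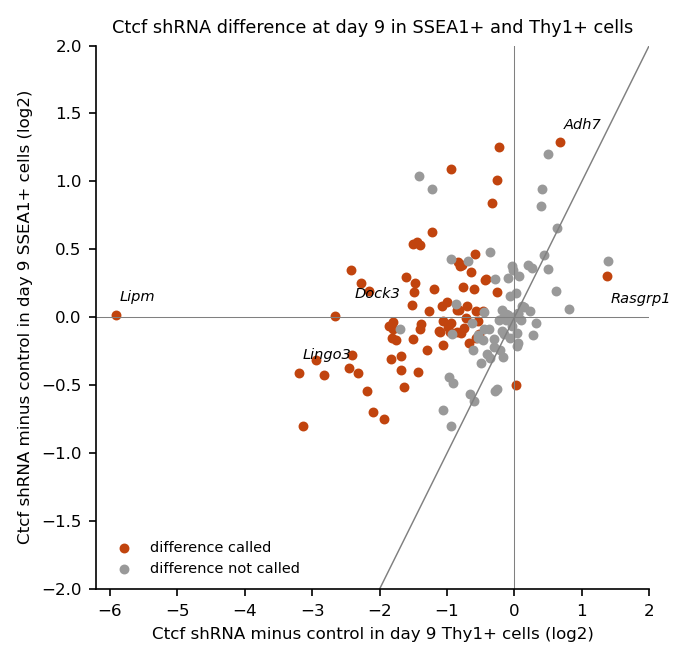
Effect of Ctcf shRNA on log2(score + 1) in day 9 SSEA1+ cells (vertical axis) against that in day 9 Thy1+ cells (horizontal axis), 1 point per gene, with the line of equal effects. Of the 76 coloured genes above the line, 75 lie left of 0, and 2 coloured genes lie below the line.

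Markers moved in the day 9 Thy1+ cells too. With Ctcf shRNA the 5 epithelial markers summed to 1283 to 1312, against 3613 to 3966 in control cells, the 6 pluripotency markers to 119 to 184, against 435 to 499, and Fut9 was at 162 and 270, against 864 and 890. The fibroblast sums overlapped, at 235573 to 276834 with Ctcf shRNA and 271378 to 284024 in control cells. In the wider lists, 15 of 28 pluripotency genes and 14 of 20 simple epithelial genes had a more positive effect in SSEA1+ cells. Over all genes the share was 10.3%, and the simple epithelial list includes Dsp, which is among the 150. The share of these markers in the difference of the 150 genes was not tested.

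The day 10 comparison of cells with extra CTCF could call almost nothing. It had 1 control sample and 2 residual degrees of freedom, so that the spread came from the 2 groups that received CTCF, and it called 5 of 12915 genes in all. Of the 122 genes measured in that table, limma called 0 higher (0.0387% of all genes) and 0 lower (0% of all genes), with 2 higher and 16 lower at an unadjusted p below 0.05. At that level, 783 of the 12915 genes (6.06%) passed in either direction. The median log2 difference of the 122 between OSKM plus CTCF and the OSKM control was -0.13, against 0.02 over all genes. Of the 122, 85 lay below 0, and the share of all genes below 0 is not given here. Tgm3 was at 560 and 619 with CTCF, against a control mean of 1179, a log2 fold change of -1.001 ± 0.17 (SE, adjusted p = 0.397, limma). Nnat was at 742 and 604 with CTCF, against a control mean of 326.5, a log2 fold change of 1.03 ± 0.18 (SE, adjusted p = 0.438, limma). The 2 control columns were counted as 1 sample because they were far closer to each other than the libraries of the other groups. Their median squared difference was 0.327 of that of counts of the same size, against 9.70 with CTCF and 7.26 with CTCF and the Smarca5 shRNA.

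A deposited day 10 comparison does not name its conditions, but Ctcf differed between them, with the authors' means of 1730 and 2197. In the authors' deposited table, 33 of the 150 genes were higher in the condition with less Ctcf at the authors' p below 0.05 (6.03% of all genes) and 11 were lower (5.71% of all genes). Their median log2 ratio, less Ctcf over more, was 0.10 against -0.013 over all genes, with 97 above 0 and 53 below. Over all 29161 genes, 14135 lay above 0 and 15026 below. In the mean over 8 sorted populations, by contrast, more of the genes were lower with Ctcf shRNA. The comparisons are unlike, because the day 10 shRNA cells had no named sort. Their Ctcf log2 ratio was -0.34, against -0.76 to -1.39 in the 8 populations. The sorted populations also differed: 13 genes were higher and 10 lower in day 9 SSEA1+ cells, and 9 higher and 79 lower in day 6 double-negative cells. The authors' deposited table gave log2 ratios, less Ctcf over more, of 0.80 for Miat, 0.64 for Tgm3, 0.59 for She and 0.53 for Magi2. In the authors' deposited table, Bcl11b was at -1.22, while Lingo3 (-0.01), Elavl4 (-0.10) and Nnat (0.11) had an authors' p of 0.984, 0.833 and 0.199.

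The end points of reprogramming were also sequenced as 1 library each, which allows no test of the cell types. Of the 135 genes of the set in that table, 45 were higher in the iPSC library (40.7% of all genes with a count) and 49 lower (38.5% of all genes) with exact binomial 95% intervals apart, and the intervals of 41 overlapped. These intervals cover counting error only, and levels are given as CPM, counts scaled to the library total. Nefl was at 27.9 CPM (24.8 to 31.4) in iPSCs and 0.422 (0.170 to 0.869) in MEFs. Jag2 was at 38.6 (34.9 to 42.7) in iPSCs and 1.33 (0.831 to 2.01) in MEFs. Both were thus higher in the iPSC library. Plxnc1 was lower there, at 4.24 (3.05 to 5.73) in iPSCs and 17.9 (15.9 to 20.1) in MEFs. Bcl11b was at 0.404 (0.110 to 1.03) in iPSCs and 2.65 (1.93 to 3.56) in MEFs. Lingo3 had 65 counts in iPSCs and 0 in MEFs. The median level of the 135 genes was 4.24 CPM in iPSCs and 3.38 in MEFs.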

How the data were processed

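RNA was sequenced by the submitters from NEBNext libraries of TRIzol RNA, per the labels' protocols. Per the submitters' processing notes, Trim Galore, FastQC and RSEM were used with mm10 (mm9 for the MEF and iPSC libraries), and versions are not given in the sources used here. The score tables hold tag counts after the authors' own scaling to nearly equal library totals and rounding, and how they were scaled is not given in the sources used here. Over genes the 44 sorted-cell libraries summed to 26119844 to 28981763. For MEFs and iPSCs, raw counts were deposited, with totals of 16593659 for MEFs and 9912018 for iPSCs. A deposited comparison table holds the authors' score means, their log2 ratio and a p-value without a header, and these columns were identified from their arithmetic.

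Because a normalized score is not a count, the deposited scores were analysed as log2(score + 1) in limma 3.58.1 under R 4.3.3, allowing the variance to follow the mean and estimating each group of 2 libraries separately, leaving 22 residual degrees of freedom. Every gene met the filter on low values, which asked for 2 libraries with a score of 10 or more. A fold change on this scale understates the change of low genes. The fit was tested on simulated data. Alternatives were a constant of 8, a minimum of 100, a replicate block, fits of only the groups compared and leaving out each library. Promoters come from RefSeq tables of GRCm38.p6, and biotypes from the GENCODE M21 annotation.

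The 150 genes, the gene lists and the function classes were chosen with earlier results of these data known. The text names the 15 largest ratios and, per test, up to 6 genes per direction (up to 12 for the mean effect of Ctcf shRNA) by size of change among called genes with no overlap of libraries (for the mean effect, with the same direction in all 8 populations), leaving out predicted genes and pseudogenes, and 1 gene that met this rule is not reported here. Gm42418 and AY036118, the time course examples, and the genes named from the day 10 and the MEF and iPSC tables were chosen after their values were seen. Of 56 samples, 4 day 10 shRNA samples had no column of their own and were not analysed here.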

Additional observations from a re-analysis of the deposited data

Results flagged for a closer look

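The effect of Ctcf shRNA on day 9 differed between SSEA1+ and Thy1+ cells, by a direct test of the difference in limma (Benjamini-Hochberg adjusted p below 0.05 over 13451 genes). It was more positive in SSEA1+ cells for 76 of the 150 genes (10.3% of all genes) and more negative for 2 (9.43% of all genes). The difference on the log2 scale, the effect in SSEA1+ cells minus that in Thy1+ cells, was 5.93 for the epidermal lipase gene Lipm, 2.79 for Lingo3, 2.76 for Dock3, 2.67 for Zdhhc23 and 2.53 for Slc10a4. It was -1.07 for Rasgrp1 and -0.53 for Dglucy. The size for Lipm depends on the constant added before the logarithm. Summed levels of epithelial and pluripotency markers and of Fut9 were lower with Ctcf shRNA in the day 9 Thy1+ cells as well, and their part in the difference was not tested.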

How the results depend on the processing

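Most counts stayed within 1.5 times of those reported. The balance of the Ctcf shRNA counts in day 3 SSEA1+ cells changed, with 4 higher and 3 lower without the first control library. No other result changed direction. With a constant of 8 before the logarithm, 8 of the 150 genes were lower in day 6 double-negative than in Thy1+ control cells, and 7 were higher with Ctcf shRNA in day 3 SSEA1+ cells. With only the groups compared in the fit, 0 were higher and 0 lower with Ctcf shRNA in day 3 SSEA1+ cells, where 23 were higher and 22 lower at an unadjusted p below 0.05 in limma, and 0 and 0 in day 9 SSEA1+ cells, where 31 and 24 were. In that fit 1 gene had a more negative effect in SSEA1+ than in Thy1+ cells. Fewer samples entered these fits, and the shares of all genes at the unadjusted level are not given here. With the 2 control columns of day 10 kept as separate samples, an alternative chosen after seeing the data, 1 gene was higher and 3 lower with extra CTCF. Without Gm42418, AY036118, Lars2 and the 2 histone genes, also chosen after seeing the data, 0 were lower in day 6 SSEA1+ than in day 12 Ctcf shRNA cells, by construction.

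Leaving out each library in turn gave these ranges. SSEA1+ against Thy1+ gave 121 to 123 higher and 4 lower on day 3, and 113 to 119 higher and 4 to 5 lower on day 9. Double-negative against Thy1+ gave 111 to 114 higher and 3 to 4 lower on day 6. Day 9 against day 3 SSEA1+ cells gave 30 to 33 higher and 62 to 64 lower. Day 6 SSEA1+ Ctcf shRNA cells gave 140 to 141 higher and 0 lower against day 0, and 134 to 137 higher and 0 to 3 lower against day 12. The mean effect of Ctcf shRNA gave 19 to 20 higher and 75 to 80 lower. Its effect gave 2 to 4 higher and 3 to 6 lower in day 3 SSEA1+ cells, 6 to 8 higher and 4 to 6 lower in day 9 SSEA1+ cells, and 6 to 8 higher and 65 to 71 lower in day 6 double-negative cells. The difference between day 9 effects gave 61 to 72 higher and 1 to 2 lower, and the day 10 comparison 0 and 0. Of the combinations of a named gene and an alternative, 93 lost the call, 61 of them when a library was left out.

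Libraries of the same replicate number did not deviate together (correlations between -0.0445 and 0.107), so they share only a number. With the replicate block, 125 and 5 genes were higher and lower in SSEA1+ than in Thy1+ cells on day 3, 122 and 6 on day 9, and 121 and 5 in double-negative cells. With this block the mean effect of Ctcf shRNA gave 19 higher and 78 lower, and that in day 6 double-negative cells 9 higher and 80 lower. In day 9 SSEA1+ cells the block gave 16 higher and 11 lower, and for the difference between day 9 effects 77 higher and 2 lower. The read depth behind the scores is unknown, and no interval for counting error is given for them.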
